A study of Mus musculus with 7 samples.

Results

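The mitochondrial ribosomal protein genes examined here are the 78 genes, of 35641 in the deposited table, whose symbol is Mrpl or Mrps followed by a number and at most 1 further letter. They comprise 49 Mrpl genes, named for the large subunit, and 29 Mrps genes, named for the small subunit, and the rule uses their symbols alone and no measured value. RNA was sequenced from sorted lung cells of female C57BL6 mice in 2 groups, HF with 4 libraries and LF with 3, and the labels name no allele, agent, time or age for either group. The labels do not spell out HF and LF, while the title of the study speaks of obesity and of oxidative stress in neutrophils. Both groups are labelled as neutrophils, sorted for CD45, CD11b and Ly6G with low Ly6C. Values are normalized counts, that is, read counts that the authors divided by 1 size factor per library, and differences are on the scale log2(normalized count + 1).

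Mitochondria carry a ribosome of their own, which translates the few proteins encoded by mitochondrial DNA, all of them subunits of the respiratory chain and of ATP synthase. Every protein of this ribosome is encoded in the nucleus, made in the cytosol and imported, while its rRNAs are transcribed inside the organelle. Some of its proteins have homologs in the bacterial ribosome, and others are found only in mitochondria. Mature neutrophils are known for few mitochondria and for a reliance on glycolysis.

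The libraries held 13943173 to 16599658 gene-assigned reads in HF and 16974428 to 18983351 in LF, with reads in 16743 to 26409 and in 22362 to 24212 genes. The sort was examined by marker genes, and the LF libraries went against it. Ly6g, the gene of the Ly6G protein, stood at 4431, 1301, 2378 and 4944 normalized counts in HF1 to HF4 and at 0.749, 0 and 8.22 in LF6, LF7 and LF8. S100a8 and S100a9, the calprotectin genes of neutrophils, averaged 41606 ± 5836 and 57400 ± 7262 in HF (SD, n = 4) against 69.4 ± 4.29 and 56.2 ± 9.61 (SD, n = 3). Of 14 neutrophil markers 13 were higher in HF and 0 lower, with summed levels of 445186 to 601660 in HF and 13020 to 14400 in LF. Markers of monocytes and interstitial macrophages went the other way, with 13 of 15 lower in HF and 0 higher, and with sums of 24600 to 33913 against 170580 to 182714. Among them Csf1r, the macrophage colony-stimulating factor receptor, averaged 14073 and 33667, and the chemokine receptor Ccr2 averaged 909 and 21847. The monocyte and macrophage markers at 0 in HF1 included Fcgr1 and C1qa. Among other lists, 5 of 5 platelet markers were higher. Of 7 eosinophil, basophil and mast cell markers 2 were higher. Alveolar macrophage markers split into 2 higher and 3 lower of 10 tested, with Marco at 0 in every HF library. The shares called higher in these last 2 lists, 28.6% and 20%, were near the 26.2% over all genes tested. Yet all 7 eosinophil, basophil and mast cell markers had positive log2 differences, with a median of 2.51. Their summed levels were 950 to 1349 in HF and 68.2 to 190 in LF. The 30% of alveolar macrophage markers called lower was near the 28.7% over all genes tested. Of the T, B and NK cell markers tested, 0 of 8, 0 of 5 and 0 of 6 were called. All 6 NK cell markers still had negative log2 differences, with a median of -1.80. The NK sums were 240 to 858 in HF and 901 to 1483 in LF, while the T and B cell sums overlapped between the groups. The neutrophil, monocyte, platelet, and eosinophil, basophil and mast cell marker lists move with the groups, and so do the summed NK cell markers. Their part in the differences below was not tested, so the second group is called the LF-labelled libraries from here on. In these bulk samples fewer cells of a type and less RNA per cell cannot be told apart.

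Most mitochondrial ribosomal protein genes had lower levels in HF than in the LF-labelled libraries, and a few went the other way. Of 77 members tested, 60 were lower in HF, 3 were higher and 14 did not pass (limma, Benjamini-Hochberg adjusted p under 0.05 over 14936 genes). Over all genes tested, 55.0% were called in either direction, 28.7% as lower and 26.2% as higher. Among the members 77.9% were lower and 3.90% were higher. The median log2 difference was -1.34 over the members and -0.16 over all genes tested. Of the 60 lower members, 48 were lower by 2-fold or more on this scale. The 1 member not tested was Mrpl53, a large-subunit protein gene, which had 1 read in LF7 and 0 in the other 6 libraries. In the GENCODE M21 annotation 88.0% of its exon bases are shared with Gm42688 on the same strand. Whether this overlap lowered its count was not tested.

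The groups were also compared by whether their single values overlap. In 63 members every HF library lay below every LF-labelled library, where 33.7% of all genes tested did so. In 4 members every HF library lay above, where 28.4% of all genes did so. All 63 called members were among these, and the other 4 without overlap were Mrps9, Mrps35 and Mrpl24 below and Mrpl43 above. In the authors' deposited table an adjusted p was given for 77 members, and 60 of them were under 0.05 as lower and 3 as higher.

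**Figure D1:**
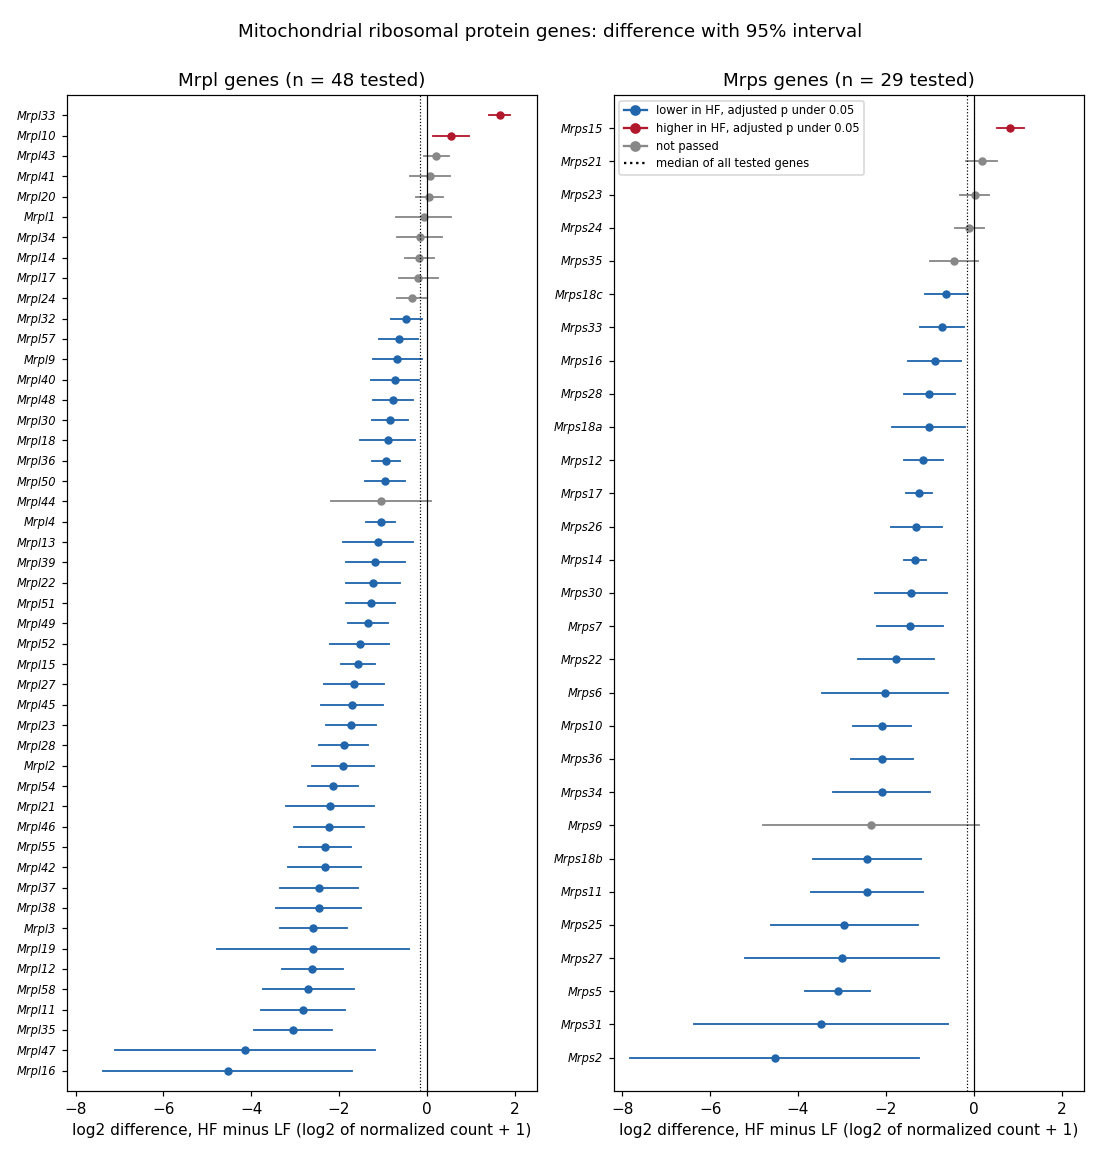
Log2 difference (HF minus LF, horizontal axis, log2 of normalized count + 1) of each tested Mrpl gene (left, 48) and Mrps gene (right, 29), with its 95% interval from limma as a bar, sorted by size. Blue points are the 60 lower members, red points the 3 higher members Mrpl33, Mrps15 and Mrpl10, grey points the 14 that did not pass, and the dotted line is the median of all tested genes at -0.16.

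The share of sequencing reads in these genes separated the groups without overlap. All members together took 0.145%, 0.135%, 0.136% and 0.128% of the gene-assigned reads in HF1 to HF4. They took 0.282%, 0.288% and 0.283% in LF6, LF7 and LF8. The mean shares were 0.136% ± 0.00721 in HF (SD, n = 4) and 0.284% ± 0.00324 in the LF-labelled libraries (SD, n = 3), and no test was made on this sum over members. The Wilson 95% interval of the share ran from 0.143% to 0.147% in HF1 and from 0.285% to 0.291% in LF7, the highest library of each group, and covers counting error only. On the authors' scale the summed level was 24185 to 26453 normalized counts in HF and 36692 to 36866 in the LF-labelled libraries.

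One gene carried much of the HF sum. Mrpl33 took 26.5% ± 3.12 of all member reads in HF (SD, n = 4) and 5.75% ± 0.512 in the LF-labelled libraries (SD, n = 3). Without Mrpl33 the members' share of all reads was 0.100% ± 0.00948 against 0.268% ± 0.00417.

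**Figure D2:**
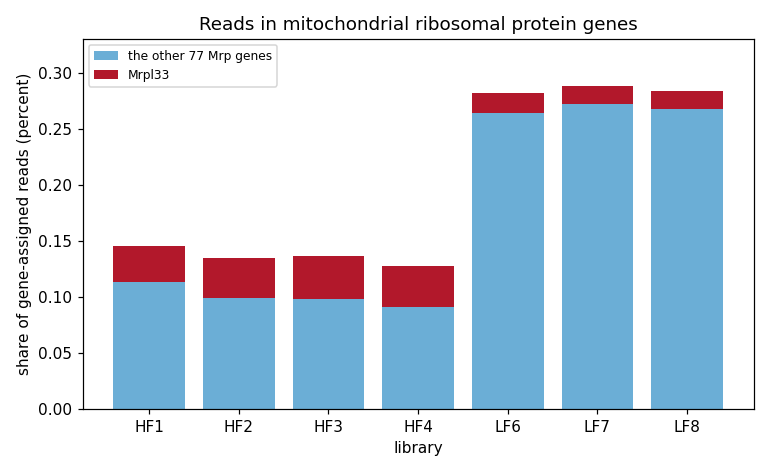
Share of gene-assigned reads (percent, vertical axis) that fall in mitochondrial ribosomal protein genes in each of the 7 libraries, with Mrpl33 in red stacked on the other 77 genes in blue. The HF bars reach 0.128% to 0.145% and the bars of the LF-labelled libraries 0.282% to 0.288%, and the red part is a larger fraction of each HF bar than of each LF-labelled bar.

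By subunit and by origin the counts were alike in direction. Of 48 Mrpl genes tested 37 were lower and 2 higher, with a median log2 difference of -1.25. Of 29 Mrps genes 23 were lower and 1 higher, with a median of -1.43. The proteins were then sorted by subunit and by whether a bacterial homolog is known. In this grouping Mrps30 and Mrps18a belong to the large subunit despite their names. Mrps18a and Mrps18b, paralogs of Mrps18c that are not in the place of the bacterial protein, were counted with those found only in mitochondria. Among 30 large-subunit proteins with a bacterial homolog 22 were lower and 2 higher, with a median of -1.17. Among 20 tested large-subunit proteins counted as found only in mitochondria 17 were lower and 0 higher, with a median of -1.31. The small-subunit proteins with a bacterial homolog gave 12 lower and 1 higher of 16, with a median of -1.29. The 10 small-subunit proteins counted as found only in mitochondria gave 8 lower and 0 higher, with a median of -1.93. The 3 higher members thus all have a bacterial homolog, and whether the classes differ was not tested.

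Because most members moved in 1 direction, the 250 bases before their annotated starts were read from the RefSeq promoter table (build GRCm38.p6), in which 69 of the 78 members had 75 promoters. Letters of 4 motif types were searched on both strands. The ETS-type word CCGGAAG stood in 24.0% of the members' promoters and in 6.91% of all 32851 promoters of the same length. The NRF1-type word GCGCATGC stood in 10.7% and 2.26%, and its longer form GCGCATGCG, which contains it, in 9.33% and 1.45%. NRF1 and ETS-family factors such as GABPA are known regulators of nuclear genes for mitochondrial proteins. The YY1-type word AAGATGGCG stood in 2.67% and 0.606%, and CCAAT in 37.3% and 33.9%. The median GC content was 58.4% in the members' promoters and 52.4% in all. A word of these letters is a description of the sequence and no measurement of binding. By call, the ETS-type word stood in 14 of 58 promoters of lower members, 3 of 13 of members that did not pass, 0 of 3 of higher members and the 1 of Mrpl53. The NRF1-type word stood in 5 of 58, 1 of 13 and 2 of 3, the last being those of Mrpl33 and Mrpl10. CCAAT stood in 24 of 58, 2 of 13, 1 of 3 and the 1 of Mrpl53, and the YY1-type word in 2 of 58, 0 of 13 and 0 of 3. The 58 include more than 1 window each of Mrpl2, Mrpl48 and Mrps16, some of them overlapping. Whether the shares differ by call was not tested.

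The promoters below are those of Mrpl33 and Mrps15, the members with the largest rises, of Mrps2, one of the members that fell most, and of Mrps22 and Mrpl22, 2 lower members with an ETS-type word. Each runs 5′ to 3′ on the strand of its gene and ends at the base before the start, and capitals mark the words found. The windows are chr5:31613701-31613950 (plus strand) for Mrpl33, chr4:126046678-126046927 (plus) for Mrps15, chr2:28467816-28468065 (plus) for Mrps2, chr9:98601680-98601929 (minus) for Mrps22 and chr11:58171414-58171663 (plus) for Mrpl22.
Mrpl33: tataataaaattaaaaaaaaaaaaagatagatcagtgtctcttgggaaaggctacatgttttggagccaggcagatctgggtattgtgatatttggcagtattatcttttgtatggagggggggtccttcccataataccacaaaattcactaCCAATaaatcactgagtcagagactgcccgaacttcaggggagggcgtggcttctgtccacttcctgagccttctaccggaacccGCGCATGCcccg
Mrps15: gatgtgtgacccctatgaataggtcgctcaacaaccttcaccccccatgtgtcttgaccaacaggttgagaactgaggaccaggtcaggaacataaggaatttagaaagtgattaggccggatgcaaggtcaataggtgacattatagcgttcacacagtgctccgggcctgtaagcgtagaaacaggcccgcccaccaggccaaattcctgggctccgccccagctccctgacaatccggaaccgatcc
Mrps2: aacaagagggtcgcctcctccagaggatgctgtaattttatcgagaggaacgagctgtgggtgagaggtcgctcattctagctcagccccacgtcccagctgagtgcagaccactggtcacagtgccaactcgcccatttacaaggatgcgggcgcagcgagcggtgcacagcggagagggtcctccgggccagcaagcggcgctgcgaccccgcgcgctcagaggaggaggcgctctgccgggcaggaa
Mrps22: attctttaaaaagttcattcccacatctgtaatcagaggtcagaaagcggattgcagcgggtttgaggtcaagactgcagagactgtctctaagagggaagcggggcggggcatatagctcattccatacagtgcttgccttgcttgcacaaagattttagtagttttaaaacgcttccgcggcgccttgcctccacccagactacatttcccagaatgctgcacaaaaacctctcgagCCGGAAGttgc
Mrpl22: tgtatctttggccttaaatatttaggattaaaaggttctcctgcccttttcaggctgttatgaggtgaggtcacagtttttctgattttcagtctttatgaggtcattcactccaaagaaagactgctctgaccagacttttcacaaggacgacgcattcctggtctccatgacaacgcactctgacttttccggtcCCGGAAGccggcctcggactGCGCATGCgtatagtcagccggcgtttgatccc
Mrpl33 holds an NRF1-type word close to its start and CCAAT further upstream, Mrps22 an ETS-type word close to its start, and Mrpl22 both an ETS-type and an NRF1-type word. Mrps15 and Mrps2, which moved in opposite directions, hold none of the words in these windows.

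The largest rise was that of Mrpl33, which encodes a protein of the large subunit near the site where transfer RNA leaves. Its normalized counts were 5837, 6494, 7140 and 7239 in HF1 to HF4 and 2338, 2007 and 2004 in LF6 to LF8. Every HF library was well above every LF-labelled library, and the spread within each group was narrow beside the gap. The log2 difference was 1.66 ± 0.10 (SE; limma adjusted p = 5.04e-06), and the mean in HF was 3.15 times that in the LF-labelled libraries. Mrpl33 was called higher under each of the 20 settings that were run, with adjusted p of 1.6e-47 to 0.00024 over the alternatives.

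Mrps15 encodes a small-subunit protein whose bacterial homolog binds early to the rRNA during assembly. It stood at 1311, 1274, 1085 and 992 normalized counts in HF and at 618, 681 and 645 in the LF-labelled libraries. All 4 HF libraries were higher, with a log2 difference of 0.84 ± 0.13 (SE; limma adjusted p = 0.00105). With equal library totals in place of the authors' size factors the call was lost (log2 difference 0.32, limma adjusted p = 0.104).

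Mrpl10 encodes the protein at the base of the stalk that recruits translation factors. It stood at 881, 606, 988 and 798 in HF and at 548, 537 and 577 in the LF-labelled libraries. HF2 was only just above the highest of these, so the groups were apart by little. The log2 difference was 0.54 ± 0.18 (SE; limma adjusted p = 0.0323). The call was lost in 9 of the 19 alternatives, among them without HF1, HF3 or HF4 and without any 1 of the LF libraries, with adjusted p of 0.00345 to 0.933.

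**Figure D3:**
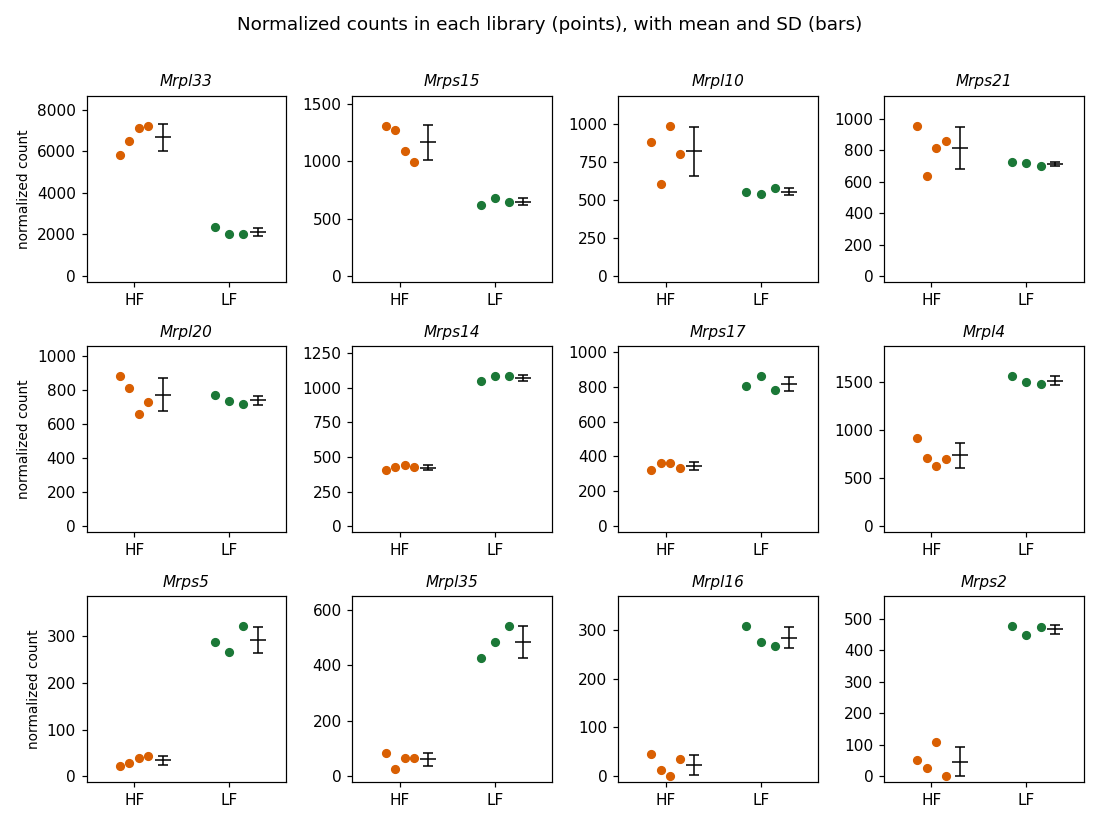
Normalized counts (vertical axes, from 0) of 12 members in the 4 HF libraries (orange) and the 3 LF-labelled libraries (green), with mean and SD as black bars beside each group. Mrpl33, Mrps15 and Mrpl10 lie higher in HF, Mrps21 and Mrpl20 overlap, and the other 7 lie lower in HF in every library.

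The most negative log2 differences were in genes that came close to 0 in some HF libraries, and their order depends on the measure. By the HF mean as a share of the mean in the LF-labelled libraries the lowest were Mrpl16 at 8.16%, Mrps2 at 10.1%, Mrps5 at 11.7% and Mrpl35 at 12.7%, with Mrpl47 next, while Mrps31 stood at 15.9% and Mrps27 at 19.0%. Mrps2, a protein on the outer side of the small subunit, had 53.0, 27.0, 108 and 0 normalized counts in HF1 to HF4 and 477, 449 and 473 in the LF-labelled libraries. HF4 had no read at all and HF3 the most, yet all 4 HF libraries were far below the other group. The log2 difference was -4.54 ± 1.43 (SE; limma adjusted p = 0.0273). A library at 0 makes this difference larger than the log2 ratio of the means, and a count of 0 allows up to 3 reads, or 3.85 normalized counts in HF4 and 3.36 in HF3. The call was lost without any 1 of the LF libraries, and also with no filter on low values or with no trend. The adjusted p ranged from 0.00183 to 0.0851 over the alternatives.

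Mrpl16, which sits near the peptidyl transferase centre of the large subunit, had 45.0, 12.9, 0 and 34.6 in HF and 307, 276 and 267 in the LF-labelled libraries. HF3 was lowest here, and every HF library was far below the other group. Its log2 difference of -4.53 ± 1.23 (SE; limma adjusted p = 0.0146) was called in every setting. Mrpl47, at the exit of the peptide tunnel, had 1.15, 24.4, 0 and 35.9 against 120, 119 and 114 normalized counts. HF1 and HF3 were at or near 0 and the groups did not overlap, with a log2 difference of -4.15 ± 1.28 (SE; limma adjusted p = 0.0254). That call was lost without HF1 and without any 1 of the LF libraries. It was also lost with no filter on low values and in both edgeR fits on recovered reads. The adjusted p reached 0.0765 over the alternatives.

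Mrps31, found only in the mitochondrial small subunit, had 33.4, 32.1, 0 and 35.9 in HF and 165, 145 and 168 in the LF-labelled libraries. Its log2 difference was -3.48 ± 1.25 (SE; limma adjusted p = 0.0446), and HF3 alone was at 0 while the other 3 were close together. Without HF3 the difference was -2.20 (limma adjusted p = 0.000537). Mrps27, a pentatricopeptide repeat protein of the small subunit, had 65.7, 2.57, 56.1 and 26.9 against 215, 199 and 182, with HF2 the lowest. It was lower by -3.00 ± 0.96 on the log2 scale (SE; limma adjusted p = 0.0285). The calls of Mrps31 and Mrps27 were lost without any 1 of the LF libraries, and that of Mrps27 also without HF4. In all, they were lost in 8 and 6 alternatives, for Mrps31 including both edgeR fits on recovered reads. The adjusted p reached 0.125 and 0.0831 over the alternatives.

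Mrps5 and Mrpl35 fell more evenly. Mrps5, a small-subunit protein at the entrance of the mRNA channel, had 23.1, 29.6, 40.4 and 43.6 normalized counts in HF and 287, 267 and 322 in the LF-labelled libraries. No HF library came near the others, and the log2 difference was -3.10 ± 0.32 (SE; limma adjusted p = 9.83e-05). Mrpl35, a large-subunit protein with a bacterial homolog, had 83.0, 28.3, 67.3 and 68.0 against 425, 485 and 541, with HF2 the lowest. It fell by 3.05 ± 0.38 on the log2 scale (SE; limma adjusted p = 0.00028). Mrps25, found only in the mitochondrial small subunit, had 72.6, 50.1, 8.97 and 93.6 against 312, 347 and 340. HF3 was the low library there, and the log2 difference was -2.94 ± 0.72 (SE; limma adjusted p = 0.00946). In the GENCODE M21 annotation 69.8% of the exon bases of Mrps25 lie opposite Nr2c2. For Mrpl47 and Mrps27 the share opposite other genes is 24.2% each. For Mrps34 it is 63.4%, and 37.0% of its exon bases are shared with Nme3 on the same strand. Whether the counting used strand is not given in the sources used here.

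Of the members with the highest mean counts after Mrpl33, Mrpl4 was lower, Mrps15 was higher and Mrps21 and Mrpl20 did not pass. Mrpl4, which lines the peptide exit tunnel, had 915, 705, 619 and 697 in HF and 1559, 1492 and 1473 in the LF-labelled libraries. Each HF library was clearly below, and the log2 difference was -1.05 ± 0.15 (SE; limma adjusted p = 0.000489). Mrps21, a small-subunit protein with a bacterial homolog, had 958, 636, 813 and 857 against 726, 718 and 697, so that HF2 lay below the other group and the rest above it. Its difference was 0.18 (95% interval -0.18 to 0.54; limma adjusted p = 0.356) and turned to -0.34 with equal library totals. Mrpl20, which is needed early in large-subunit assembly in bacteria, had 885, 815, 663 and 730 against 771, 734 and 719, with HF values on both sides. Its difference was 0.05 (95% interval -0.26 to 0.36; limma adjusted p = 0.752), and it turned to -0.47 with equal library totals.

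A set of members differed less in size but with little spread. These 3, picked after their values were seen, are Mrps14, Mrps17 and Mrpl15, all with a bacterial homolog. Mrps14, in the head of the small subunit, had 405, 427, 441 and 425 in HF and 1050, 1083 and 1088 in the LF-labelled libraries. Its coefficient of variation of 3.50% was the lowest of the members in HF, and its log2 difference of -1.34 ± 0.11 (SE) had the lowest adjusted p of the lower members (limma, 2.92e-05). Mrps17 had 323, 363, 364 and 334 against 806, 863 and 783, a difference of -1.24 ± 0.13 (SE; limma adjusted p = 9.9e-05). Mrpl15 had 244, 194, 210 and 192 against 575, 646 and 651, a difference of -1.57 ± 0.16 (SE; limma adjusted p = 9.92e-05). In all 3 each HF library was far below the lowest LF-labelled library.

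**Figure D4:**
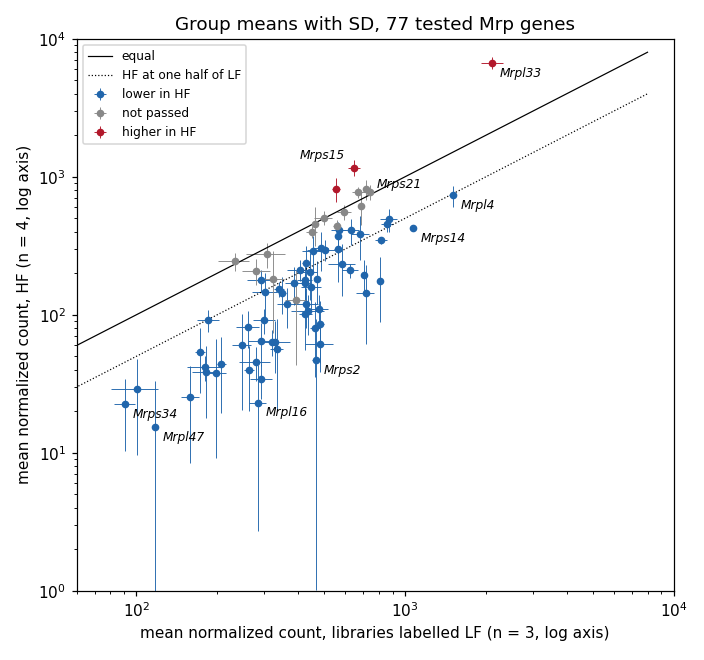
Mean normalized count in HF (vertical log axis, n = 4) against the mean in the LF-labelled libraries (horizontal log axis, n = 3) for the 77 tested members, with SD as bars. The solid line marks equal levels and the dotted line a level 2-fold lower in HF. Where the SD comes close to or above the mean (Mrps2 and Mrpl47) the lower bar ends at the edge of the plot. Mrpl33 stands apart above the solid line, and the members with the lowest HF means, Mrpl47 at 15.4 and Mrps34 at 22.4, have lower levels in both groups.

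The S18 proteins come as 3 paralogs, of which Mrps18c is in the place of the bacterial protein, Mrps18b is elsewhere in the small subunit and Mrps18a is in the large subunit. Mrps18b had 35.7, 14.1, 70.6 and 56.4 in HF and 206, 200 and 216 in the LF-labelled libraries, a log2 difference of -2.42 ± 0.53 (SE; limma adjusted p = 0.00559). Mrps18a had 420, 260, 370 and 141 against 570, 544 and 571, a difference of -1.03 ± 0.36 (SE; limma adjusted p = 0.0386). Mrps18c had 481, 292, 428 and 295 against 579, 562 and 550, a difference of -0.62 ± 0.21 (SE; limma adjusted p = 0.0373). All 3 lay below the other group in every HF library, with Mrps18b at 21.3% of its mean there, Mrps18a at 53.0% and Mrps18c at 66.4%. The calls of Mrps18a and Mrps18c were each lost in 9 alternatives, including without HF2 and without any 1 of the LF libraries, and for Mrps18c without HF4, with adjusted p up to 0.117 and 0.221. In the annotation 30.5% of the exon bases of Mrps18b lie opposite another gene and 23.2% of those of Mrps18c are shared with a gene on the same strand.

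Mrps36 carries the name but is known as an adaptor of the 2-oxoglutarate dehydrogenase complex outside the ribosome. It had 36.9, 42.4, 34.8 and 53.9 normalized counts in HF and 199, 190 and 151 in the LF-labelled libraries. The groups were well apart, and the log2 difference was -2.08 ± 0.30 (SE; limma adjusted p = 0.000634).

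The 14 members that did not pass were Mrps9, Mrps21, Mrps23, Mrps24, Mrps35, Mrpl1, Mrpl14, Mrpl17, Mrpl20, Mrpl24, Mrpl34, Mrpl41, Mrpl43 and Mrpl44. Mrps9 and Mrpl44 had large but uneven differences. Mrps9, in the head of the small subunit, had 165, 140, 6.73 and 200 in HF against 356, 427 and 399, a log2 difference of -2.34 (95% interval -4.80 to 0.12; limma adjusted p = 0.0948). Mrpl44, an RNase III-like protein of the large subunit, had 322, 203, 63.9 and 141 against 326, 288 and 353, a difference of -1.04 (95% interval -2.17 to 0.10; limma adjusted p = 0.107). HF3 was the lowest library in both genes. Without HF3 the difference of Mrps9 was -1.23 and was called lower (limma adjusted p = 0.00207), and that of Mrpl44 was -0.61 and did not pass (limma adjusted p = 0.135). Both genes were also called lower with equal library totals (-2.85 and -1.55, limma adjusted p = 0.0457 and 0.027) and with array weights, and Mrpl44 without HF1 (-1.38, limma adjusted p = 0.0294). Mrpl43, found only in the mitochondrial large subunit, lay just above in every HF library, with 765, 762, 878 and 708 against 696, 688 and 629, and its difference of 0.21 (95% interval -0.07 to 0.50; limma adjusted p = 0.18) turned to -0.31 with equal library totals. In the annotation 33.4% of its exon bases lie opposite Twnk, the gene of the mitochondrial helicase. With equal library totals 10 of the 14 were called lower, and after quantile normalization 2 were called higher, Mrpl41 and Mrpl43. Mrpl17 was also called lower without HF2. With the authors' size factors the other 11 differed by -0.45 (Mrps35) to 0.18 (Mrps21) on the log2 scale.

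The members varied more between HF libraries than between the LF-labelled libraries. The median coefficient of variation of the tested members was 29.4% in HF and 7.04% in the LF-labelled libraries, against 34.0% and 11.6% over all genes tested. HF1 held the highest HF value of 33 members, HF2 of 7, HF3 of 18 and HF4 of 19, and the number of members with 0 reads was 1, 1, 4 and 2. In LF6, LF7 and LF8 it was 1, 0 and 1. All 77 tested members had a mean above the limit of 10 normalized counts in each group, down to 15.4 in HF (Mrpl47) and 90.8 in the LF-labelled libraries (Mrps34). Of the 63 called members 40 kept their call in all 20 settings, 39 of them lower and Mrpl33 higher. A call was lost without at least 1 library in 19 members, and in 16 of them it was lost without each of the LF libraries in turn.

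Levels per length were compared with the union of exon lengths in the GENCODE M21 annotation. On this scale Mrps21 was the highest member in both groups, with 1104 ± 182 normalized counts per kb in HF (SD, n = 4) and 966 per kb in the LF-labelled libraries (coefficient of variation 2.07%, n = 3). Mrpl33 was second in HF with 911 ± 88.8 per kb, which does not differ from Mrps21 beyond their spread, and Mrps15 came next with 688 ± 89.9 per kb. The union length of Mrpl33 is 7326 bases over 11 annotated transcripts, while its longest coding transcript has 478 bases, of which 195 are coding. By the length of the longest coding transcript Mrpl33 ranked 1 and Mrps21 ranked 2 in both groups, so the order of the members depends on the length used.

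The remaining parts of the mitochondrial ribosome were looked at next. Of 5 tested subunit genes named without Mrp, 4 were lower and 1 was higher, with a median log2 difference of -1.44. Ptcd3, a pentatricopeptide repeat protein of the small subunit, had 251, 252, 215 and 148 in HF and 505, 706 and 611 in the LF-labelled libraries, a difference of -1.50 (limma adjusted p = 0.00104). Chchd1, another small-subunit protein, had 235, 130, 118 and 144 against 399, 429 and 403, a difference of -1.44 (limma adjusted p = 0.00226). Aurkaip1, which encodes a small-subunit protein first described as a binding partner of Aurora A kinase, went the other way with 1515, 1524, 1743 and 1282 against 798, 748 and 814, a difference of 0.94 (limma adjusted p = 0.000393).

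The rRNAs of this ribosome, picked after their values were seen, were higher in HF with the authors' size factors, a direction that depended on the scaling. mt-Rnr2, the large-subunit rRNA, stood at 32101, 33583, 34487 and 34023 normalized counts in HF and at 21579, 23919 and 17689 in the LF-labelled libraries. mt-Rnr1, the small-subunit rRNA, stood at 4963, 6079, 5819 and 5844 against 3986, 4487 and 3399. Both were higher in every HF library, by 0.68 ± 0.09 and 0.53 ± 0.11 on the log2 scale (SE; limma adjusted p = 0.000483 and 0.00492). After quantile normalization both turned negative, at -0.35 for mt-Rnr2, which passed as lower (limma adjusted p = 0.0319), and -0.17 for mt-Rnr1, which did not (limma adjusted p = 0.293), and with equal library totals the differences were 0.16 and 0.01 and did not pass. How a library made with a SMART-Seq kit samples these rRNAs was not tested.

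Other mitochondrial genes were mostly lower as well. Of 84 genes tested in 6 lists, which include the subunit genes named without Mrp, 53 were lower and 8 higher. Over all genes tested 28.7% were lower and 26.2% higher. Of 25 assembly and rRNA modification factors 14 were lower and 3 higher, with a median log2 difference of -1.46. The lowest p-values were those of Mrm1, a 2′-O-methyltransferase of the large-subunit rRNA (-1.58, limma adjusted p = 0.000635), Rpusd4, a pseudouridine synthase (-2.17, 0.000801), and Eral1, a chaperone of the small-subunit rRNA (-1.88, 0.000806). Rbfa, a maturation factor of the small subunit and the most abundant of the list, had 1160, 987, 1203 and 1134 in HF against 748, 787 and 746. Its rise of 0.56 (limma adjusted p = 0.0035) shrank to 0.04 with equal library totals.

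Of 17 translation and mRNA stability factors 12 were lower and 0 higher, with a median of -2.05. Pnpt1, the mitochondrial polynucleotide phosphorylase, had 252, 181, 186 and 227 in HF and 1001, 1012 and 1001 in the LF-labelled libraries, a difference of -2.25 (limma adjusted p = 1.5e-05). Gfm1, the elongation factor that moves the ribosome along, differed by -2.77 (limma adjusted p = 0.000235). Lrpprc, which stabilises mitochondrial mRNAs, had 56.5, 55.3, 144 and 28.2 against 850, 815 and 636, a difference of -3.65 (limma adjusted p = 0.000407). Mtpap, the mitochondrial poly(A) polymerase and the most abundant of the list, differed by -0.61 (limma adjusted p = 0.0156), a call that was lost without LF6 (adjusted p = 0.0705).

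Of 10 tested genes of mitochondrial DNA transcription and replication 5 were lower and 3 higher, with a median of -0.91. The share higher, 30%, was near the 26.2% of all genes tested. Tfam, which packages and transcribes mitochondrial DNA, had 209, 161, 137 and 145 in HF and 550, 513 and 536 in the LF-labelled libraries, a difference of -1.72 (limma adjusted p = 0.000178). Ssbp1, the single-strand binding protein, and Tefm, a transcription elongation factor, differed by -1.11 and -2.26 (limma adjusted p = 0.00498 and 0.00968). Polg, the mitochondrial DNA polymerase, had the highest mean and did not pass (-0.08, 95% interval -0.50 to 0.34, limma adjusted p = 0.728). With equal library totals Polg was called lower (-0.60, limma adjusted p = 0.0265), and without HF3 its difference was 0.0656.

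The products that this ribosome translates are encoded in mitochondrial DNA. Of 12 tested protein-coding genes of that DNA 7 were lower and 0 higher with the authors' size factors, with a median log2 difference of -0.65, and 0 of the 7 were lower by 2-fold or more. The size of these differences depended on the scaling. With equal library totals 10 were called lower, 7 of them by 2-fold or more, with a median of -1.17, and after quantile normalization 7 were called lower, 4 of them by 2-fold or more, with a median of -0.77. Without LF6, LF7 or LF8 the calls as lower numbered 4, 3 and 3, and 1 gene was called as lower by 2-fold or more without HF1 and 3 without HF2. mt-Co1, a cytochrome c oxidase subunit and the most abundant, had 16147, 16093, 11442 and 13121 normalized counts in HF and 21194, 23876 and 21136 in the LF-labelled libraries, a difference of -0.65 (limma adjusted p = 0.00302). The complex I subunits mt-Nd1 and mt-Nd5 differed by -0.90 and -0.92 (limma adjusted p = 0.0107 each). After quantile normalization mt-Co1, mt-Nd1 and mt-Nd5 differed by -1.58, -1.58 and -1.58, and with equal library totals by -1.17, -1.42 and -1.44, all called lower.

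Of 15 import and matrix chaperone genes 11 were lower and 1 higher, with a median of -1.20. Hspa9, the matrix chaperone that pulls in imported proteins, had 378, 381, 502 and 472 in HF and 1681, 1759 and 1582 in the LF-labelled libraries, a difference of -1.96 (limma adjusted p = 1.42e-05). Hspe1, a co-chaperonin, and Tomm70a, an import receptor, differed by -2.13 and -1.54 (limma adjusted p = 0.000113 and 0.000231). The most abundant gene counted in this list was Cs, citrate synthase, a matrix enzyme that is neither an import factor nor a chaperone. Cs had 1982, 2983, 2747 and 2176 against 3154, 3048 and 3104 and did not pass (-0.35, 95% interval -0.68 to -0.01, limma adjusted p = 0.0753). Cs was called lower with equal library totals (-0.87, limma adjusted p = 0.00174), after quantile normalization (-0.80, limma adjusted p = 0.00118), with array weights and without HF2 (limma adjusted p = 0.023 and 0.0238). The lists are given as counts and medians, and whether any differs from the mitochondrial ribosomal protein genes was not tested.

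**Figure D5:**
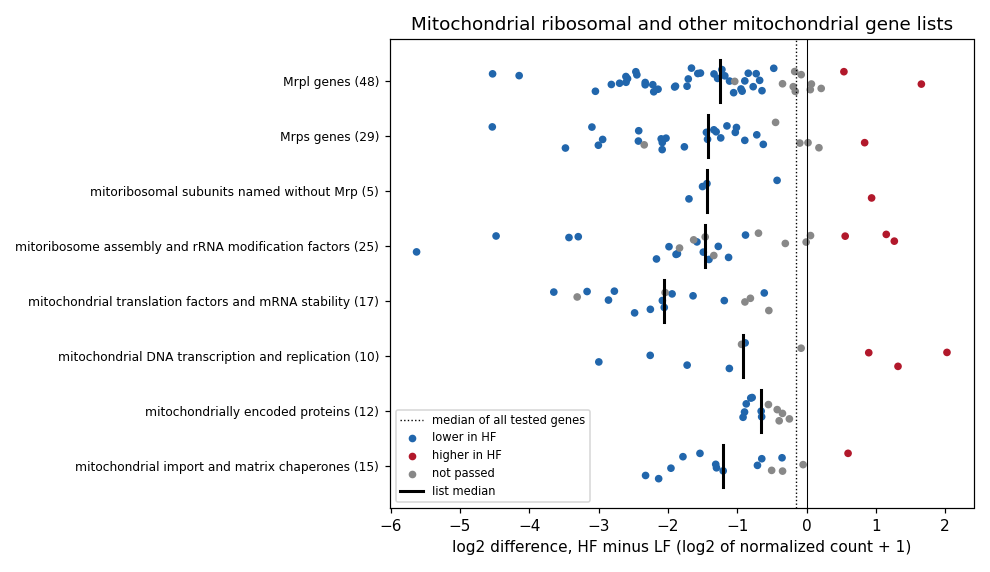
Log2 difference (HF minus LF, horizontal axis, log2 of normalized count + 1) of each tested gene of the Mrpl and Mrps genes and of 6 other mitochondrial lists (rows, with the number tested), coloured by call, with vertical offsets for visibility only. The thick bars are list medians, from -0.65 for mitochondrially encoded proteins to -2.05 for translation and mRNA stability factors, and the dotted line is the median of all tested genes at -0.16.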

How the data were processed

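RNA sequencing of 7 libraries (4 HF, 3 LF) was deposited as 1 table of 35641 genes. TRIzol LS was used for RNA and a SMART-Seq kit for the libraries, per the labels' protocols. Tools named in the submitters' processing notes are DESeq2 1.20.0, featureCounts 1.6.3 and STAR 2.6.1b, without their settings. Genome build, annotation and the use of strand were not given in the sources used here. The deposited normalized counts are a signal that is never negative. Every value (100%, within 0.01) was a whole multiple of the value of 1 read, from which it was inferred that the authors divided counts by 1 size factor per library, and whole reads were recovered. The authors' log2 fold changes, test statistic (a score), p-values and adjusted p-values stand beside them, per the file headers, and serve only where their table is named as the source.

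HF columns match the labels. The LF columns are numbered 6 to 8 and the labels 1 to 3, so they were taken as LF libraries with no number of their own (0 unmapped columns). Groups are counted in mice in the design text, and the p-values rest on the spread between libraries alone.

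With limma 3.58.1 (R 4.3.3, trend=TRUE), log2(normalized count + 1) was tested in genes whose mean was at least 10 normalized counts, with Benjamini-Hochberg adjustment at 0.05. The pseudocount shrinks the differences of low genes, while a library at 0 makes a difference larger than the log2 ratio of the means, as for Mrps2. edgeR 4.0.16 on recovered reads called 7624 genes under the authors' size factors and 7651 under TMM, and DESeq2 1.42.0 called 8472, against 8211. Other alternatives were pseudocounts of 0.5 and 5, no filter, a minimum mean of 50, equal library totals, quantile normalization, no trend, a robust prior, array weights and each library left out. Fits were tested on simulated counts in which few genes changed, as many up as down, which does not test the scaling between these groups. Exon lengths and overlaps came from GENCODE M21 by gene ID (78 of 78 matched), promoters from RefSeq, and figures from matplotlib 3.10.9.

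Members and gene lists were chosen with earlier results of these data known. Values in each library are given for the 8 members with the largest called difference in each direction (3 existed for higher), the 5 with the highest mean, the S18 paralogs and Mrps36, and genes of other lists are up to 3 of lowest p and the most abundant one. Others are marked as picked after their values were seen, apart from members named among those that did not pass. Alternatives for the genes of other lists and for the rRNAs were added after seeing the data. The values of 1 marker gene are not reported here.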

Additional observations from a re-analysis of the deposited data

Results flagged for a closer look

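In 5 of 78 sets of 4 HF values (77 members and the share of reads), 1 HF library stood far from the other 3 by Dixon's ratio of gap to range, and chance flags about 1 in 20 such sets. Mrps31, of the small subunit, was at 0 normalized counts in HF3 and at 32.1 to 35.9 in the others. Mrpl3, of the large subunit, was at 146 in HF4 and at 59.1 to 72.6 in the others. Mrps22, of the small subunit, was at 93.6 in HF4 and at 39.9 to 41.5 in the others. Mrps35 was at 142 in HF3 against 224 to 239, and Mrpl17 was at 858 in HF2 against 507 to 546. The groups of 3 LF-labelled libraries are too small for this ratio.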

How the results depend on the processing

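No paired analysis was possible because the labels name no pairs of mice. The LF columns (6, 7 and 8) also carry none of the labels' replicate numbers, so a replicate block was not run. All 60 lower members were negative in each of the 20 settings. The number called lower was 43 to 70 over all settings and 43 to 60 with 1 library left out, and the number called higher 1 to 5 and 2 to 3. With 1 library left out, all genes called numbered 3346 to 4031 higher and 3062 to 4439 lower, those of the 6 mitochondrial lists 6 to 8 higher and 38 to 55 lower, and the mean share of reads was 0.133% to 0.139% in HF and 0.282% to 0.286% in the LF-labelled libraries. Equal library totals moved the median of all genes by -0.51 and the share of higher calls from 47.7% to 30.0%, left 1 member and 2 genes of the mitochondrial lists called higher, and turned Mrps23 to -0.50, Mrpl20 to -0.47, Mrpl41 to -0.45, Mrps21 to -0.34 and Mrpl43 to -0.31. Relative to the median of all genes the members' median was -1.18 there and -1.18 with the authors' size factors. Quantile normalization called 5 members higher and turned Mrps35 to 0.11, Mrpl17 to 0.0137, Mrpl14 to 0.20, Mrpl34 to 0.34, Mrps24 to 0.16, Mrpl1 to 0.28, mt-Rnr1 to -0.17 and mt-Rnr2 to -0.35. With 1 library left out, Mrpl1 lay between -0.23 and 0.16 (positive without HF4), Mrps23 between -0.0564 and 0.0816 (negative without HF2 or LF7), Mrpl20 between -0.0149 and 0.12 and Mrpl41 between -0.0135 and 0.17 (both negative without HF1), and Polg between -0.19 and 0.0656 (positive without HF3). None of the members turned here was called with the authors' size factors, and the cause of these changes was not tested. Members with few reads in HF are the least precise, and reads amplified without identifiers do not count molecules one by one.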

Other observations

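Of 4 pseudogenes of these genes in the table, Mrpl23-ps1 stood at 63.4, 87.4, 77.4 and 82.1 normalized counts in HF1 to HF4 and at 27.0, 39.0 and 29.5 in the LF-labelled libraries, higher in every HF library, while Mrpl23 itself stood at 74.9, 102, 76.2 and 112 against 267, 319 and 313. How alike the sequences of Mrpl23 and Mrpl23-ps1 are was not tested. How the authors' counting treated reads that match both is not known, so both values are uncertain. Mrps36-ps1, Mrps36-ps2 and Mrpl48-ps stayed at or below 11.3 normalized counts in every library.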
